A study of Mus musculus with 4 samples.

Results

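Keratins are the intermediate filament proteins of epithelial cells. They assemble as pairs of a type I and a type II chain, and each kind of epithelium uses its own pairs. Simple, single-layered epithelia such as the gastric glands make Krt8 with Krt18 and Krt19, whereas stratified squamous epithelia make Krt5 with Krt14 in their basal layer and Krt1 with Krt10 or Krt4 with Krt13 in the layers above. The mouse stomach holds both kinds, because its proximal part, the forestomach, is lined by squamous epithelium and its distal part is glandular. The keratins of the whole stomach were compared between *c-Myc* transgenic and WT mice, setting simple epithelial against squamous keratins.

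The members were chosen by name alone, as every row called Krt followed by digits and at most 1 letter, which gave 54 of the 46095 gene symbols in the table. Keratin-associated proteins (*Krtap*) and *Krtdap* were not included. Each genotype had 2 samples of stomach from C57BL/6 mice of 12 weeks, given in the labels as WT and MYC-KI. The MYC-KI samples carried *Atp4b-cre* and *MycOE*, so Cre driven by the promoter of a proton pump subunit switched on a *c-Myc* transgene in the parietal cell lineage, and the WT mice were *Myc fl/fl* littermates without overexpression. Nothing in the labels says whether a sample was 1 stomach or how much forestomach it held, so p-values measure only the spread between these samples.

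The counts of the MYC-KI columns stand against gene names in another sort order than those of the WT columns, and this had to be corrected before any keratin could be read. Taken in row order and given to the names sorted by character code, the MYC-KI counts moved to another name for 46 of the 54 keratins. The genotypes' mean log2(count + 1) correlated across the 54 keratins, genes and not replicates, at a Pearson's r of 0.430 as deposited and of 0.990 after re-sorting. For the 46 keratins that moved it rose from 0.377 to 0.991. The row of *Krt8* shows what the order does. As deposited, it held 363 and 453 counts in the MYC-KI samples against 113986 and 101490 in the WT samples, and these low values became those of the pseudogene *Krt8-ps* (394 and 330 counts in WT). After re-sorting, *Krt8* had 116618 and 170628 counts in the MYC-KI samples. A test on the deposited order called 22 of 31 keratins and 84.1% of all genes tested, and its calls are not used here.

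The samples held 30260305 to 41463647 counts. *Xist* had 17846 counts in WT replicate 2 and at most 201 in the others, while the Y-linked *Ddx3y* had 5 there and at least 1861 elsewhere, so WT replicate 2 stood apart by the sex these genes mark. The row of mouse *Myc* held 735 and 1091 counts in MYC-KI against 1062 and 759 in WT, and a human transgene has no row of its own in the table. Known markers of the targeted lineage did differ. *Atp4b*, the pump subunit whose promoter drives Cre, had 2610 and 2490 CPM (counts put on the same depth in all samples, with TMM normalization) in WT and 38.4 and 51.7 in MYC-KI. MYC-KI replicate 2 stood apart in squamous genes. Because bulk RNA was measured, fewer cells of a type and less RNA per cell cannot be told apart.

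The 54 keratins lie in the 2 known keratin clusters. On GRCm38, the build of the labels (mm10), 27 were on chromosome 11 over 1037 kb and 27 on chromosome 15 over 685 kb, with gene models from GENCODE vM21. *Krt18* is the type I gene that stands at the end of the type II cluster, next to its partner *Krt8* (chr15:101996698-102004482, minus strand, with *Krt18* at chr15:102028180-102032027, plus strand). *Krt79* (chr15:101929332-101940324, minus strand) lies between *Krt4* and *Krt78* in the same cluster, and *Krt5* is at chr15:101707070-101712898 on the minus strand.

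The sequences just upstream of 4 of these genes are shown because they stand for the patterns described here: the simple pair *Krt8* and *Krt18*, the basal squamous gene *Krt5*, and *Krt79*, the keratin that rose. They are RefSeq promoter sequences on GRCm38.p6, written 5′ to 3′ on the gene's strand and ending before the annotated start of the gene. Capitals mark each CACCC box, read on either strand as CACCC or GGGTG. These letters are the core recognised by Krüppel-like factors such as Klf4 and Klf5.
Krt8 (chr15:102004483-102004592, minus strand): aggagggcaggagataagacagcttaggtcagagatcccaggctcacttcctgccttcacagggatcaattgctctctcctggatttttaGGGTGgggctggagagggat
Krt18 (chr15:102027966-102028179, plus strand): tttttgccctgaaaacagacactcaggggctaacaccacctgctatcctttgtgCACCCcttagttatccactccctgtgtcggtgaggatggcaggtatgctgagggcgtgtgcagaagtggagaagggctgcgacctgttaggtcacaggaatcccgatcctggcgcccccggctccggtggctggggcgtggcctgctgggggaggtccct
Krt5 (chr15:101712906-101713155, minus strand): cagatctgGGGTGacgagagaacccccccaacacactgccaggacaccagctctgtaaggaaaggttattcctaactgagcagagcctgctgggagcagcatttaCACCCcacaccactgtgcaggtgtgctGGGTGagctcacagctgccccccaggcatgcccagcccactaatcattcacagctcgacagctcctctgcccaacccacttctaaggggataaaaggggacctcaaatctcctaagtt
Krt79 (chr15:101940325-101940574, minus strand): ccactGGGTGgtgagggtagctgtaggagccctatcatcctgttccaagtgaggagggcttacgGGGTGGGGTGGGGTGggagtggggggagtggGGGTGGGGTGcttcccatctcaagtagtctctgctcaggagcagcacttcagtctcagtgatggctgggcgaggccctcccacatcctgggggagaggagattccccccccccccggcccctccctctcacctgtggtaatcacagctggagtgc

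The stretches differ in length, with 250 bases for *Krt79* and *Krt5*, 214 for *Krt18* and 110 for *Krt8*. Over the same 250 bases before the RefSeq start, *Krt79* held 6 CACCC boxes, *Krt5* held 3, *Krt8* held 2 and *Krt18* held 1. In that window 29 of 37 keratin promoters (78.4%) held at least 1 CACCC box, against 52.0% of all 32851 promoters. These 37 starts belong to the 36 of 54 keratins with a promoter sequence. The E-box CACGTG, the letters that Myc with Max is known to bind, was in 3 of the 37 (*Krt23*, *Krt75* and *Krt78*) and in 6.02% of all promoters. The AP-1 motif TGANTCA was in 2 of the 37, both of them starts of *Krt13*, and in 6.75% of all promoters. None of the 3 motifs overlapped another in the 4 stretches shown, where CACCC was the only motif found.

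Of the 54 keratins, 26 had enough counts to be tested and 28 did not. Of the latter, 15 had no count in any sample, which allows up to 3 counts in each, and the other 13 had at most 47 counts. They were mostly keratins of hair and nail or of the inner root sheath, such as *Krt31*, *Krt71* and *Krt86*. Of the squamous lists, *Krt2* and *Krt77* had 0 to 4 counts in each sample, and *Krt9* and *Krt24* had none.

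Only *Krt79* passed the test between MYC-KI and WT, out of 26 keratins tested. Over all 17643 genes tested, 1892 (10.7%) were called, 996 higher (5.65%) and 896 lower (5.08%), at an adjusted p under 0.05 in edgeR's quasi-likelihood test with Benjamini-Hochberg adjustment and more than a 1.5-fold difference. At an unadjusted p under 0.05 there were 7 keratins and 34.1% of all genes, and DESeq2 called 4 of the 29 keratins to which it gave an adjusted p and 17.7% of all such genes. The median log2 fold change was 0.45 over the 26 keratins and 0.01 over all genes. Without MYC-KI replicate 2 the keratin median was −0.45, so its sign rested on that sample. In 7 keratins both MYC-KI samples lay above both WT samples and in 2 both lay below, against 33.3% and 31.5% of all genes, and 17 keratins overlapped.

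Keratin RNA was mainly of the simple type in every sample. Per length of exon (RPKM, from normalized CPM), the mean levels in WT were highest for *Krt8* (1796) and *Krt19* (1634), followed by *Krt18* (483), *Krt13* (423) and *Krt4* (280). *Krt20*, *Krt1* and *Krt10* came next in WT at 242, 221 and 220 RPKM. *Krt5* stood at 79.5 RPKM in WT and *Krt14* at 49.4. The simple keratins made up 69.1% and 79.8% of summed keratin RPKM in WT and 83.7% and 60.6% in MYC-KI, so the range within MYC-KI enclosed both WT samples.

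**Figure D1:**
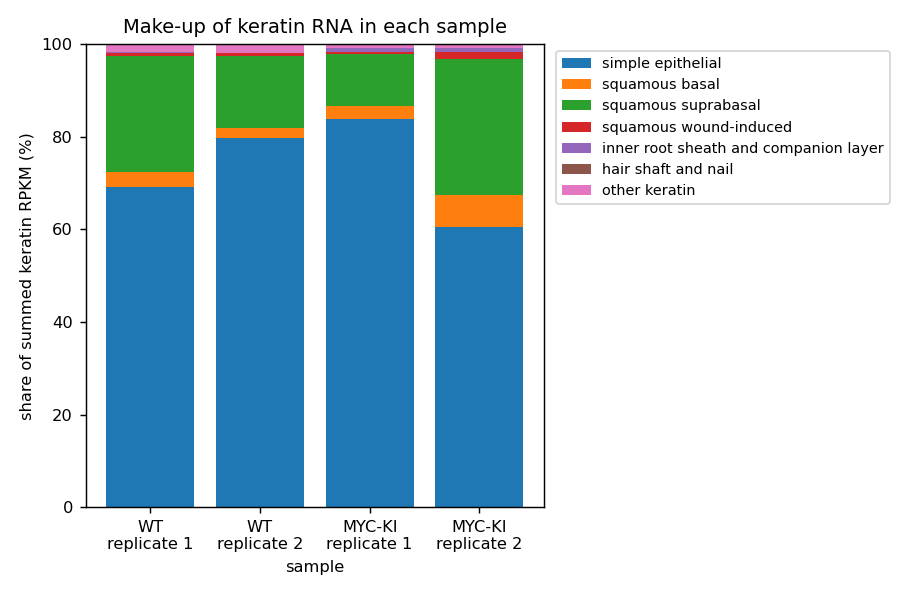
Share of summed keratin RPKM (%) taken by each list of keratins, stacked to 100% for each of the 4 stomach samples. The simple share is highest in MYC-KI replicate 1 (83.7%) and lowest in MYC-KI replicate 2 (60.6%), with both WT samples between them.

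The simple epithelial keratins had log2 fold changes of 0.05 to 0.59, and none of the 5 was called by edgeR. At an unadjusted p under 0.05 there were 2, *Krt18* and *Krt7*, and DESeq2 called 0. In DESeq2 both had an adjusted p of 0.0144 but were under the required 1.5-fold, with log2 fold changes of 0.37 and 0.58. Their summed level was 7189 and 7962 CPM in WT and 7879 and 8760 in MYC-KI. *Krt8*, the type II chain of simple epithelia, had 3397 and 3638 CPM in WT and 3438 and 3820 in MYC-KI, and the groups overlapped. Its log2 fold change was 0.05 with a 95% interval of −0.29 to 0.38. *Krt8* shares 29.7% of its 50-base words with *Krt8-ps*, whose row held at most 453 counts.

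*Krt19*, a type I chain of ductal and glandular cells, had 2404 and 2747 CPM in WT and 2543 and 3050 in MYC-KI. *Krt20*, made in surface and intestinal-type differentiated cells, had 442 and 493 CPM in WT and 541 and 478 in MYC-KI. Both genes overlapped between the genotypes, with log2 fold changes of 0.12 (95% interval −0.28 to 0.52) and 0.12 (−0.18 to 0.43).

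*Krt18*, the type I partner of *Krt8*, had 660 and 727 CPM in WT and 922 and 880 in MYC-KI. The MYC-KI samples were both above the WT samples, with a log2 fold change of 0.38 ± 0.10 (SE, n = 2 per genotype), and the adjusted p was 0.0795 in edgeR's quasi-likelihood test. *Krt7*, a type II chain of ducts and transitional epithelia, had 287 and 358 CPM in WT and 435 and 533 in MYC-KI, again without overlap. Its log2 fold change was 0.59 ± 0.17 (SE) with an adjusted p of 0.0897. When library size replaced TMM scaling, both were called higher, and that scaling raised the median of all genes to 0.23.

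The balance between simple keratins was read from ratios of RPKM within a sample, which no library scaling can move. These ratios were chosen after the values were seen, and with 2 samples against 2 the smallest two-sided exact permutation p is 0.333. *Krt8* over *Krt18* was 3.77 and 3.67 in WT and 2.74 and 3.19 in MYC-KI, a log2 difference of −0.33 ± 0.11 (SE). *Krt7* over *Krt19* was 0.0459 and 0.0502 in WT and 0.0659 and 0.0672 in MYC-KI, a log2 difference of 0.47 ± 0.07. *Krt20* over *Krt18* was 0.499 and 0.506 in WT and 0.438 and 0.405 in MYC-KI. Both MYC-KI samples thus held more *Krt18* relative to *Krt8*, *Krt19* and *Krt20*, and more *Krt7* relative to *Krt8* and *Krt19*. The largest of these differences between the genotype means was 1.46-fold, for *Krt7* over *Krt8*. Such separation was common in the table. The ratio to *Krt18* was lower in both MYC-KI samples for 57.7% of all genes and higher for 13.2%, with a median log2 difference of −0.38, so the ratios to *Krt18* lay near that of other genes. The ratio to *Krt8* was higher for 28.0% and lower for 33.1%, and that to *Krt19* was higher for 20.1% and lower for 34.4%.

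**Figure D2:**
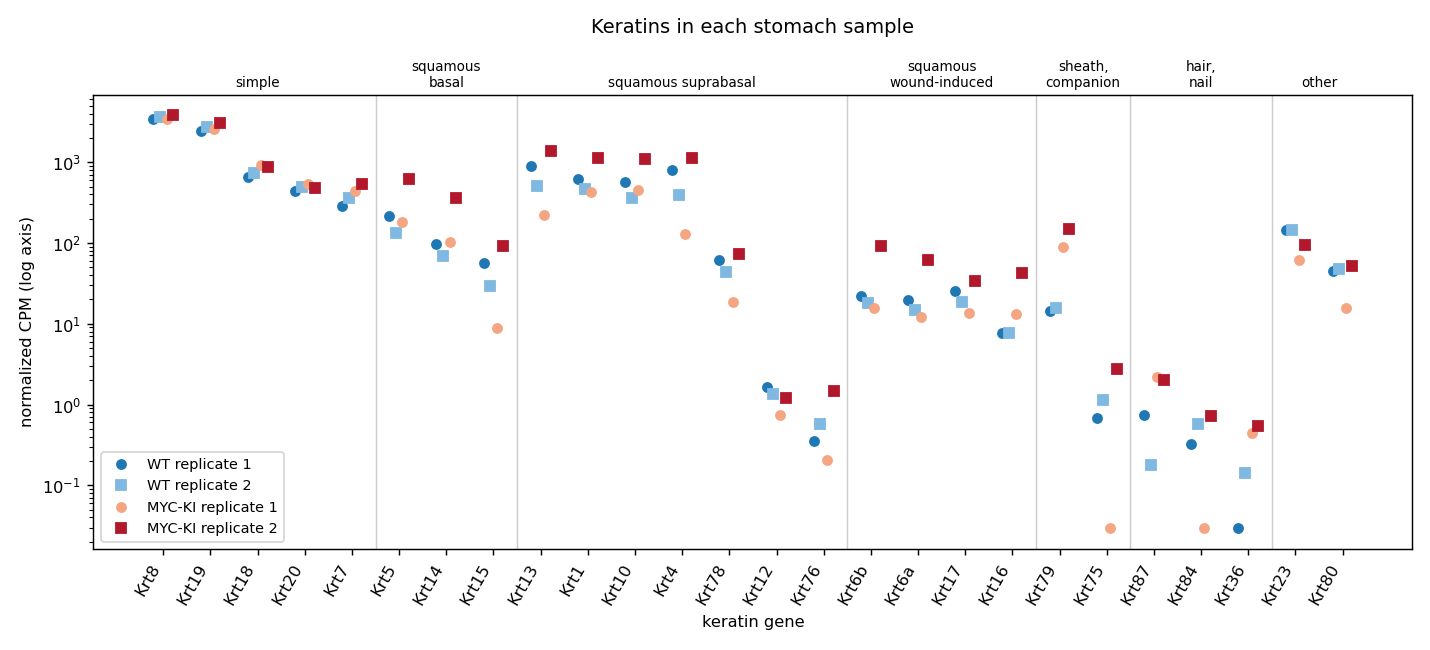
Normalized CPM (log axis) of the 26 tested keratins in each of the 4 samples, grouped by list. The simple keratins lie close together, the squamous keratins spread with MYC-KI replicate 2 at the top for 13 of 14 (*Krt12* is the exception), and *Krt79* separates the genotypes.

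The summed squamous keratins differed more between the MYC-KI samples than between the genotypes, and so did most single members, with *Krt16* as an exception. None of the 14 tested, of 18 listed, was called by edgeR, with 1 at an unadjusted p under 0.05 (*Krt16*) and 1 called by DESeq2 (*Krt16*). Their summed level was 3390 and 2064 CPM in WT and 1598 and 6102 in MYC-KI, a 3.82-fold gap within MYC-KI and a 1.64-fold gap within WT. In 13 of 14 the MYC-KI samples differed by more than 2-fold, as did 13.5% of all genes, and in all 14 replicate 2 was the higher. The WT samples differed by more than 2-fold in 1 of 14 (*Krt4*), as did 9.44% of all genes. The sum of 20 squamous markers that are not keratins had the same order of samples, and 19 of the 20 were higher in MYC-KI replicate 2 than in replicate 1. Their sum was 1670 and 1107 CPM in WT and 799 and 2642 in MYC-KI, 0 of 20 were called and 3 had an unadjusted p under 0.05, which DESeq2 called. These were *Ivl* (4.59 and 2.47 CPM in WT, 14.3 and 9.34 in MYC-KI) and *Ly6d* (84.9 and 74.4, then 124 and 225), higher in both MYC-KI samples, and *Fgfbp1* (54.9 and 52.5, then 12.4 and 24.2), lower in both, all named after their values were seen. How much squamous tissue each sample held was not measured, and its part in these results was not tested.

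**Figure D3:**
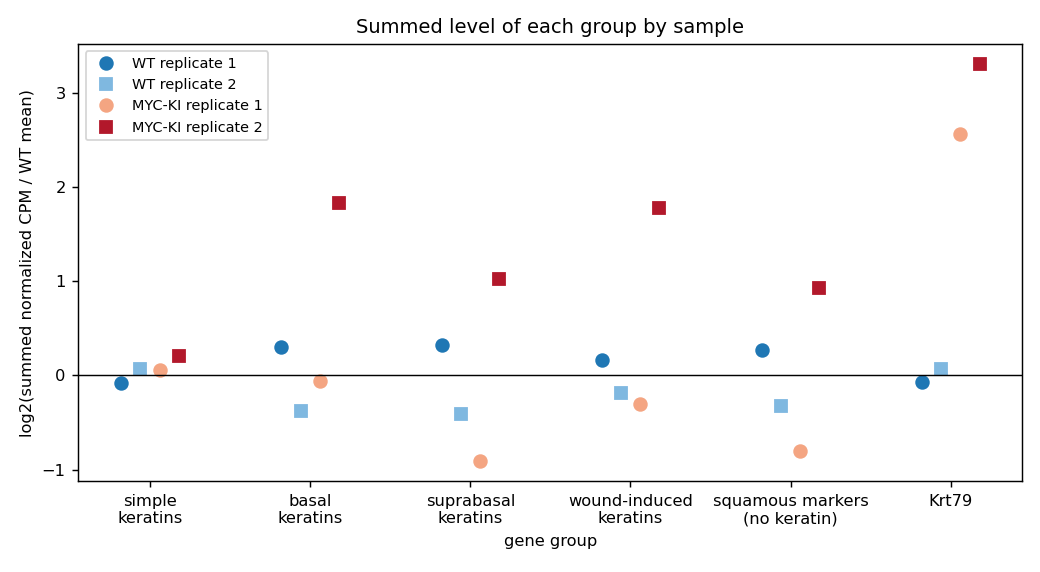
Summed normalized CPM of each gene group in each sample, as log2 of its ratio to the WT mean. MYC-KI replicate 2 is the highest sample and MYC-KI replicate 1 lies below the WT mean in the basal, suprabasal and wound-induced keratins and in the non-keratin squamous markers, while both MYC-KI samples are above WT for *Krt79*.

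The same contrast stood out when squamous and simple keratins were set against each other directly. For each count of a simple keratin there were 0.472 and 0.259 squamous keratin counts in WT and 0.203 and 0.697 in MYC-KI. The MYC-KI samples were thus the lowest and the highest of the 4. The mean log2 ratio differed by 0.10 between the genotypes, against a spread of 0.99 within them. Without MYC-KI replicate 1 the difference was 0.99, and without replicate 2 it was −0.79.

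The basal keratins are made by the dividing cells on the basement membrane. *Krt5*, their type II chain, had 217 and 133 CPM in WT and 179 and 619 in MYC-KI. *Krt14*, its type I partner, had 98.2 and 69.6 CPM in WT and 103 and 360 in MYC-KI. *Krt15*, another type I chain of basal cells, had 57.2 and 29.4 CPM in WT and 8.90 and 90.6 in MYC-KI. *Krt5* and *Krt15* overlapped between the genotypes and *Krt14* did not, though its lower MYC-KI sample exceeded the higher WT sample by little. The log2 fold changes were 1.19 ± 0.65, 1.46 ± 0.64 and 0.20 ± 1.08 (SE) for *Krt5*, *Krt14* and *Krt15*, and the adjusted p-values were 0.272, 0.191 and 0.916 in edgeR. These values rested on MYC-KI replicate 2, without which *Krt5* and *Krt14* had log2 fold changes of 0.038 and 0.29. Without replicate 1 they were called higher, in a fit whose lone MYC-KI sample is assumed to vary like the WT pair.

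The suprabasal keratins were the most abundant squamous keratins and had no common direction. *Krt13* and *Krt4*, the pair of internal squamous epithelia such as the oesophagus, showed wide gaps within MYC-KI. *Krt13* had 886 and 512 CPM in WT and 223 and 1368 in MYC-KI. *Krt4* had 799 and 393 CPM in WT and 130 and 1123 in MYC-KI, so the MYC-KI samples differed 6.13-fold and 8.62-fold in these genes and lay on either side of WT. The pair of cornified epithelia varied less. *Krt1* had 625 and 459 CPM in WT and 428 and 1137 in MYC-KI, and *Krt10* had 569 and 362 in WT and 451 and 1097 in MYC-KI, a gap within MYC-KI of 2.65-fold and 2.43-fold. All 4 genes overlapped between the genotypes, with adjusted p-values of 0.359 to 0.969.

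The remaining suprabasal keratins were less abundant. *Krt78*, a type II chain of stratified epithelia, had 61.5 and 44.3 CPM in WT and 18.4 and 73.5 in MYC-KI and overlapped. *Krt12*, known from the cornea, was at 56 and 38 counts in WT and 25 and 54 in MYC-KI, and *Krt76*, known from the palate, at 12 and 16 in WT and 7 and 65 in MYC-KI. *Krt12* shares 42.0% of its 50-base words with *A830036E02Rik*, so its few counts are uncertain. Relative to depth, *Krt12* was lower in both MYC-KI samples, with an adjusted p of 0.367.

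*Krt6a*, *Krt6b*, *Krt16* and *Krt17* are keratins that squamous cells switch on in wounds and in hyperproliferation. *Krt6b* had 22.3 and 18.2 CPM in WT and 15.6 and 92.4 in MYC-KI. *Krt6a* had 20.0 and 14.7 CPM in WT and 12.1 and 61.8 in MYC-KI. In both, MYC-KI replicate 1 was below WT and replicate 2 well above it. *Krt6a* and *Krt6b* share 57.2% and 50.1% of their 50-base words, mostly with each other, so reads may have been split between them.

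*Krt16*, the type I partner of the *Krt6* chains, had 7.75 and 7.74 CPM in WT and 13.3 and 42.8 in MYC-KI, without overlap. Its log2 fold change was 1.86 ± 0.59 (SE), the largest of the squamous keratins, with an adjusted p of 0.110 in edgeR. *Krt17* had 25.6 and 18.5 CPM in WT and 13.6 and 33.7 in MYC-KI and overlapped. *Krt16* shares 37.6% of its words with other transcripts, mainly *Gm11597*. Without MYC-KI replicate 2, *Krt6a*, *Krt6b* and *Krt16* had log2 fold changes of −0.52, −0.38 and 0.78. Without replicate 1 they were called higher, on the same assumption about a lone sample.

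**Figure D4:**
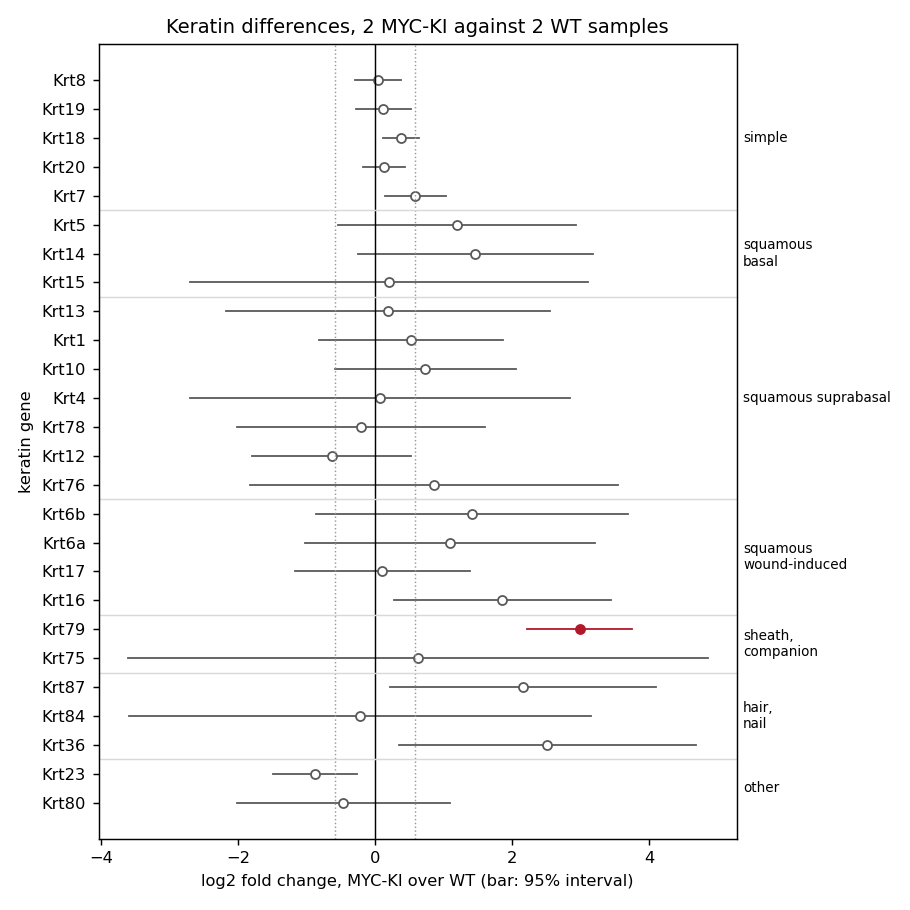
Log2 fold change of each tested keratin, MYC-KI over WT (2 samples each), with its 95% interval as a bar, dotted lines at a 1.5-fold difference and called genes filled. *Krt79* is the only filled point, and the intervals of the squamous keratins are several times wider than those of the simple keratins.

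The squamous keratins were also read relative to squamous RNA, by dividing each by the summed counts of the 20 non-keratin squamous markers in the same sample, a measure chosen after the values were seen. By this measure 7 of 14 squamous keratins were higher in both MYC-KI samples, 2 were lower and 5 overlapped. Among all genes with more than 3 counts in every sample, 3.70% were higher and 11.9% lower, but of the 20 markers themselves 8 were higher and 5 lower. Per 1000 marker counts, *Krt5* had 130 and 120 in WT and 225 and 234 in MYC-KI. *Krt14* had 58.8 and 62.9 in WT and 128 and 136 in MYC-KI, and *Krt16* had 4.64 and 6.99 in WT and 16.7 and 16.2 in MYC-KI. The MYC-KI samples, so far apart in CPM, were close to each other in these 3 keratins. They stayed apart in *Krt4* (163 and 425) and *Krt15* (11.1 and 34.3). Also higher in both MYC-KI samples were *Krt6a*, *Krt6b* and the suprabasal *Krt1* and *Krt10*. *Krt1* had 374 and 415 in WT and 537 and 430 in MYC-KI. *Krt10* had 341 and 327 in WT and 565 and 415 in MYC-KI. *Krt12* and *Krt78* were lower, with *Krt78* at 36.8 and 40.0 per 1000 in WT and 23.0 and 27.8 in MYC-KI.

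Ratios of RPKM between squamous keratins gave the layers against each other. *Krt13* over *Krt14* was 9.26 and 7.55 in WT and 2.24 and 3.90 in MYC-KI. *Krt4* over *Krt5* was 3.80 and 3.05 in WT and 0.748 and 1.87 in MYC-KI. *Krt78* over *Krt5* was likewise lower, at 0.182 and 0.213 in WT and 0.0656 and 0.0759 in MYC-KI. Its log2 difference was −1.48 ± 0.16 (SE). *Krt1* per *Krt5* and *Krt10* per *Krt14* had log2 differences of −0.59 ± 0.23 and −0.58 ± 0.28. All 5 ratios of a suprabasal to a basal keratin were lower in both MYC-KI samples.

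These 5 ratios share their 2 denominators, and a low ratio to these genes was common in the table. The ratio to *Krt5* was lower in both MYC-KI samples for 32.3% of all genes and for 15 of the 20 non-keratin squamous markers, and that to *Krt14* for 51.4% and for 17 of 20. Ratios that were higher in both MYC-KI samples made up 0.586% and 0.456% of all genes and 0 of the 20 markers. The median log2 difference over all genes was −0.98 per *Krt5* count and −1.22 per *Krt14* count, further below 0 than the values for *Krt1* and *Krt10*. No test beyond these counts was made, and the exact permutation test over 2 and 2 samples cannot go below a two-sided p of 0.333.

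Ratios of RPKM among the basal and wound-induced keratins had no common direction. *Krt15* over *Krt14* was 0.582 and 0.422 in WT and 0.0867 and 0.251 in MYC-KI. *Krt17* over *Krt14* was 0.286 and 0.291 in WT and 0.145 and 0.102 in MYC-KI. Its log2 difference of −1.24 ± 0.25 (SE) was near the median of all genes for *Krt14*. *Krt16* over *Krt14* was higher in both MYC-KI samples, with a log2 difference of 0.41 ± 0.26, and *Krt6a* and *Krt6b* over *Krt5* overlapped. Ratios of a chain to its partner were read in 3 squamous pairs. *Krt5* over *Krt14* was 1.70 and 1.47 in WT and 1.35 and 1.33 in MYC-KI. *Krt1* over *Krt10* was 0.946 and 1.09 in WT and 0.818 and 0.892 in MYC-KI. *Krt4* over *Krt13* overlapped, at 0.700 and 0.596 in WT and 0.452 and 0.636 in MYC-KI. Over all keratins 20 such ratios were computed.

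**Figure D5:**
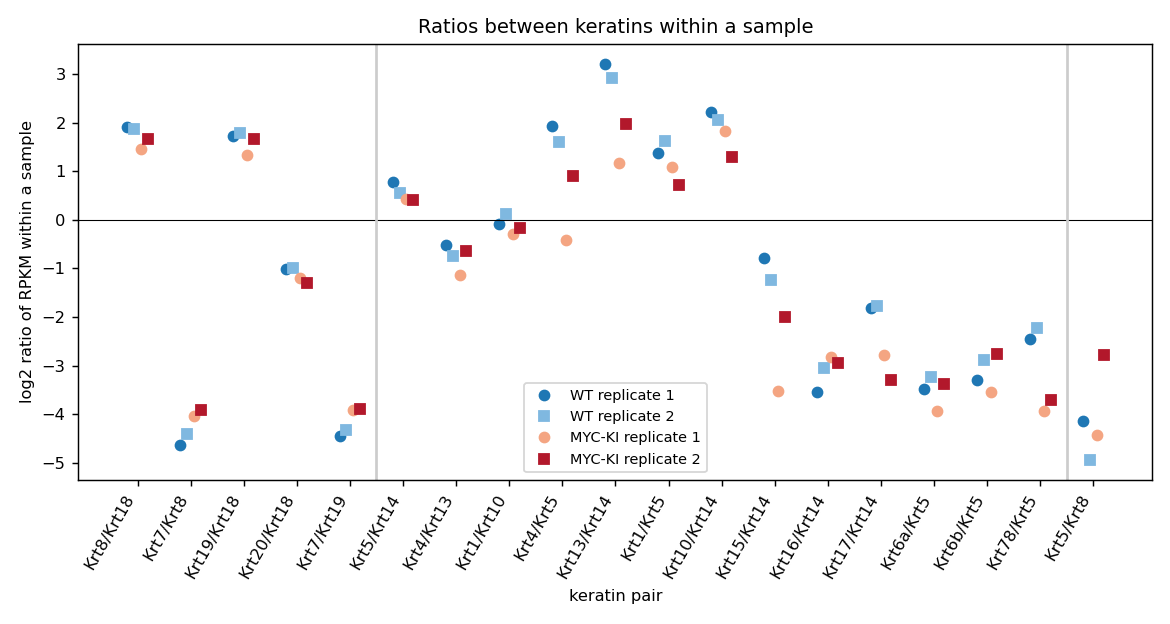
Log2 ratio of RPKM within each sample for 19 pairs of keratins, with vertical lines between simple pairs, squamous pairs and the basal-to-simple pair. The suprabasal-to-basal ratios (*Krt4*/*Krt5*, *Krt13*/*Krt14*, *Krt1*/*Krt5*, *Krt10*/*Krt14*, *Krt78*/*Krt5*) are lower in both MYC-KI samples than in both WT samples, while *Krt5*/*Krt8* has the MYC-KI samples far apart.

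*Krt79* was the keratin that rose. It encodes a type II chain known from the infundibulum of the hair follicle and the ducts of sebaceous glands, and it was listed here with the sheath and companion layer keratins. It was at 483 and 440 counts in WT and 3030 and 6666 in MYC-KI, that is, 14.4 and 15.8 CPM against 89.3 and 149. Both MYC-KI samples were well above both WT samples, and they differed 1.67-fold from each other where the squamous markers differed 3.31-fold. The log2 fold change was 2.98 ± 0.29 (SE, n = 2 per genotype), a 7.91-fold difference, with an adjusted p of 0.0194 in edgeR's quasi-likelihood test. Per 1000 squamous marker counts it had 8.62 and 14.2 in WT and 112 and 56.5 in MYC-KI. The log2 fold change was 2.92 without WT replicate 1 and 3.05 without WT replicate 2, but neither fit called any gene of the whole table. It was 3.31 and 2.57, and called, without MYC-KI replicate 1 and replicate 2.

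*Krt79* shared no 50-base word with another gene's transcripts. Its neighbours in the cluster, *Krt4* and *Krt78*, had adjusted p-values of 0.969 and 0.863, and in both the MYC-KI samples lay on either side of WT. In all 5 tested genes that define hair and epidermis, MYC-KI replicate 2 was above replicate 1. Of 54 *Krtap* rows, 3 had any count and none more than 1. *Flg*, which encodes filaggrin of cornified cells, had 53.4 and 39.2 CPM in WT and 14.8 and 55.2 in MYC-KI, and *Hrnr*, which encodes hornerin, had 35.0 and 23.9 in WT and 9.97 and 39.2 in MYC-KI. Both had the order of samples of *Krt13* and *Krt4*. *Tchh*, which encodes trichohyalin of the inner root sheath and was named after its values were seen, had few counts, 24 and 2 in WT and 56 and 97 in MYC-KI, with a log2 fold change of 2.24 ± 0.98 (SE) and an adjusted p of 0.192. None of the 5 tested genes of that list was called by edgeR or DESeq2, and 0 had an unadjusted p under 0.05.

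The other keratins outside the simple and squamous lists showed no further call in edgeR. *Krt23*, a type I chain, had 143 and 144 CPM in WT and 61.5 and 95.3 in MYC-KI. Both MYC-KI samples were lower, with a log2 fold change of −0.88 ± 0.23 (SE) and an adjusted p of 0.0757 in edgeR. *Krt80*, a type II chain of many epithelia, had 45.4 and 47.7 CPM in WT and 15.5 and 51.9 in MYC-KI and overlapped. DESeq2 called *Krt23* lower and *Krt16*, *Krt79* and *Krt87* higher.

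The hair keratins *Krt36* and *Krt87* were higher in both MYC-KI samples at very low counts. *Krt36* was at 1 and 4 counts in WT and 15 and 24 in MYC-KI, and *Krt87* at 25 and 5 in WT and 75 and 89 in MYC-KI, with adjusted p-values of 0.111 and 0.120 in edgeR. *Krt87* shares 36.9% of its words with other transcripts, mainly *Gm49425*. *Krt84* and the companion layer keratin *Krt75* overlapped, with 11 and 16 against 1 and 32 counts, and 23 and 32 against 1 and 123.

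Keratin filaments are anchored to desmosomes by plakins, and 2 of 19 tested genes of this group were called, both higher. DESeq2 called 3, adding *Dst*, which encodes dystonin and was lower (336 and 335 CPM in WT, 128 and 235 in MYC-KI). *Pkp2*, a plakophilin of simple epithelia and heart, had 38.7 and 41.2 CPM in WT and 69.7 and 64.7 in MYC-KI, a log2 fold change of 0.75 ± 0.09 (SE) with an adjusted p of 0.0232 in edgeR. *Eppk1*, which encodes epiplakin, a keratin-binding plakin, had a log2 fold change of 0.64 ± 0.09 and was named after its values were seen. The most abundant members did not pass. *Dsp*, which encodes desmoplakin, had 1059 and 1112 CPM in WT and 758 and 1083 in MYC-KI, and *Plec*, which encodes plectin, had 704 and 731 in WT and 658 and 730 in MYC-KI. The share called was 10.5% of this group and 10.7% of all genes. In 17 of 19 MYC-KI replicate 2 was above replicate 1, and 8 differed by more than 2-fold between these samples (13.5% of all genes), against 0 between the WT samples. *Pkp1*, a plakophilin of squamous epithelia named after its values were seen, had 91.1 and 56.2 CPM in WT and 71.4 and 223 in MYC-KI.

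Among the other intermediate filament genes, 6 of 17 tested were called (35.3%, against 10.7% of all genes), 3 higher and 3 lower. DESeq2 called 7, adding *Vim* (195 and 226 CPM in WT, 67.9 and 135 in MYC-KI), which encodes vimentin of mesenchymal cells. The B-type lamin genes *Lmnb1* and *Lmnb2* and the filament family gene *Iffo2* rose, with log2 fold changes of 0.84, 0.66 and 0.90. For *Iffo2*, 32.4 and 36.7 CPM in WT stood against 57.0 and 71.4 in MYC-KI. The neuronal filament genes *Nefm* and *Ina* and the progenitor gene *Nes* fell, with log2 fold changes of −2.73, −2.28 and −0.95. *Nefm* was at 147 and 75 counts in WT and 17 and 25 in MYC-KI. The most abundant members did not pass. *Des*, which encodes desmin of muscle, had 997 and 662 CPM in WT and 383 and 852 in MYC-KI, and *Lmna* had 334 and 363 in WT and 359 and 458 in MYC-KI.

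Transcription factors known from squamous epithelia included 2 calls out of 11 (18.2%, against 10.7% of all genes), both higher. DESeq2 called 4, adding *Pitx1* and *Tfap2c*, both higher. *Sox2*, which is also expressed in the gastric glands, had 20.1 and 20.0 CPM in WT and 76.5 and 80.0 in MYC-KI, a log2 fold change of 1.97 ± 0.08 (SE). *Klf5*, a factor of proliferating epithelia, had 128 and 118 CPM in WT and 271 and 254 in MYC-KI, a log2 fold change of 1.09 ± 0.09. Neither gene separated the MYC-KI samples as the squamous keratins did. *Klf4*, a factor of differentiating epithelia, had 639 and 616 CPM in WT and 308 and 513 in MYC-KI, with an adjusted p of 0.186. *Trp63*, the defining factor of squamous basal cells, named after its values were seen, had 22.1 and 12.5 CPM in WT and 20.4 and 54.7 in MYC-KI, the same order of samples as *Krt5*.

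*Lor* and *Sprr3*, the most abundant markers of the cornified layer, had the order of samples of *Krt13* and *Krt4*. *Lor*, which encodes loricrin, had 374 and 236 CPM in WT and 129 and 525 in MYC-KI. *Sprr3*, which encodes a cornified envelope protein, had 235 and 142 in WT and 79.7 and 320 in MYC-KI. In both, replicate 2 of MYC-KI was the highest sample and replicate 1 the lowest. *Ivl*, which encodes involucrin of the same layer, did not have this order, as replicate 1 of MYC-KI was its highest sample.

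Markers of parietal, chief and surface mucous cells mostly fell, by more than any simple keratin differed, while those of mucous neck cells were not called. Over all genes 5.08% were called lower. Of the parietal cell markers 8 of 9 fell, among them *Atp4b* and *Atp4a* with log2 fold changes of −5.82 and −5.59. Of 6 tested chief cell markers 4 fell, with *Chia1* at 67261 and 57533 counts in WT and 155 and 201 in MYC-KI and with *Pgc*, which encodes pepsinogen C, at a log2 fold change of −6.00. Of 7 surface mucous cell markers 6 fell, with log2 fold changes of −2.46 for *Muc5ac*, −1.88 for *Gkn2* and −1.73 for *Gkn1*. None of the 4 mucous neck cell markers was called by edgeR or DESeq2, and 0 had an unadjusted p under 0.05. *Tff2* had 5526 and 6472 CPM in WT and 12341 and 5000 in MYC-KI, and *Muc6* had 4337 and 5723 in WT and 7373 and 3667 in MYC-KI.

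Markers of epithelial cells as a whole had a median log2 fold change of 0.44, against 0.12 for the simple keratins, and in 6 of 7 both MYC-KI samples lay above both WT samples, as in 33.3% of all genes. None of 7 was called by edgeR, with 3 at an unadjusted p under 0.05, and DESeq2 called 1 (*Epcam*). *Ap1m2*, named after its values were seen, had an adjusted p of 0.0369 at a log2 fold change of 0.44, under the required size. *Cdh1*, which encodes E-cadherin, had 1095 and 1200 CPM in WT and 1241 and 1220 in MYC-KI, and *Epcam* had 364 and 346 in WT and 760 and 515 in MYC-KI with an adjusted p of 0.0705. Intestinal markers, 0 of 10 called by edgeR or DESeq2 with 1 at an unadjusted p under 0.05, were all higher in MYC-KI replicate 1 than in replicate 2. In 8 the gap was more than 2-fold, as it was in 4 between the WT samples. *Alpi*, which encodes intestinal alkaline phosphatase, had 716 and 198 CPM in WT and 799 and 66.4 in MYC-KI, high in replicate 1 of each genotype. *Lgals4* had 530 and 455 CPM in WT and 699 and 632 in MYC-KI, with an adjusted p of 0.0872. The order of samples in *Alpi* was not that of the squamous keratins.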

How the data were processed

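Stomach RNA of 2 WT and 2 MYC-KI samples was compared from 1 table of raw counts. The authors deposited whole-number read counts on 46095 gene symbols, 1 column per sample, without normalization. The processing notes of the submitters name HISAT2 and the build mm10, and the counting tool, annotation and use of strand are not given in the sources used here. Every row has a gene name, and 0 columns of samples were left unused.

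The counts of both MYC-KI columns, in row order, were assigned to the names sorted by character code, and the WT columns stayed as they were. The re-sorting used no count value. The keratins, gene lists and tests were chosen with earlier results of these data known, so no list is independent evidence of its direction.

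Counts were tested over the whole table with edgeR 4.0.16 in R 4.3.3 (TMM, filterByExpr with a minimum count of 10, glmQLFit, glmQLFTest, Benjamini-Hochberg adjustment, without covariates). Calls needed an adjusted p under 0.05 and more than a 1.5-fold difference, as in the study. CPM values are TMM-normalized, and RPKM values divide them by the exon length of protein-coding transcripts in the basic set of GENCODE vM21. All 54 keratins matched that annotation and 36 matched a RefSeq promoter. Shared sequence was counted as 50-base words of a gene's transcripts found in another gene's. The SE of a log2 ratio comes from the SDs over 2 samples. A count of 0 was read as allowing up to 3, a limit for counting error alone.

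On simulated counts in which 200 genes had a true log2 fold change of 2, drawn for the MYC-KI against WT comparison, edgeR recovered 165 of the 200 (82.5%) in a test of 17724 genes and called 9 others, and DESeq2 1.42.0 recovered 172 (86%) and called 23 others. Chi-square per degree of freedom between replicates was 28.9 in WT and 97.9 in MYC-KI, so they differed beyond sampling noise and were kept as separate samples. All simple and tested squamous keratins were named, as were the tested members of other keratin lists. Of each other list, the called gene with the largest change in each direction and the 2 members with the highest mean CPM were named. Other names are given as chosen after their values were seen: these are *Lmnb1*, *Lmnb2*, *Ina*, *Nes*, *Eppk1*, *Dst*, *Pkp1*, *Vim*, *Pitx1*, *Tfap2c*, *Ivl*, *Ly6d*, *Fgfbp1*, *Tchh*, *Ap1m2* and *Trp63*. Alternatives were the deposited order, DESeq2, its size factors in edgeR, library size, no filter, at least 10 counts in every sample, a replicate block, other fold change thresholds and leaving out each sample.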

Additional observations from a re-analysis of the deposited data

How the results depend on the processing

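With the names re-sorted, *Krt79* was higher in every fit and called in all but the 2 that left out a WT sample. Leaving out 1 sample makes the other of its genotype a lone sample, assumed to vary like the other genotype's pair. The 2 fits with a lone WT sample called no gene. Leaving out WT replicate 2 also removes the sample that differs in sex. The SE of the log2 fold change was 0.43 to 1.08 for the tested squamous keratins and 0.10 to 0.17 for the simple keratins. *Krt7* was itself not called at a log2 fold change of 0.59. Which difference of that size could be detected in either group was not tested.

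Numbers of calls moved as follows, with the cause not tested unless the setting itself gives it. Over the whole table there were 18580 calls as deposited, 3234 in DESeq2, 3011 with library size, 114 with the replicate block and 1113 above a log2 fold change of 1. The share of calls that were higher was 52.6% with TMM and 75.5% with library size. Keratins called numbered 22 as deposited (of 31 tested), 4 in DESeq2, 3 with library size and 4 with no filter. Simple keratins called numbered 5 as deposited, 2 with library size and 1 with no filter (*Krt7*), and squamous keratins 10 as deposited, 1 in DESeq2 and 1 with no filter, both *Krt16*. Forestomach markers called numbered 17 as deposited, 3 in DESeq2, 2 with library size and 3 with no filter. Desmosome and plakin genes numbered 10 as deposited, 0 with the replicate block and 0 above a log2 fold change of 1. Other intermediate filament genes numbered 16 as deposited, 0 with the block and 2 above 1.

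Without each sample in turn, calls ranged from 0 to 2470 over the whole table, 0 to 7 for keratins, 0 to 5 for squamous keratins, forestomach markers, and desmosome and plakin genes, and 0 to 8 for other intermediate filament genes. The 7 keratins without MYC-KI replicate 1 were *Krt5*, *Krt14*, *Krt16*, *Krt6a*, *Krt6b* and *Krt79* (higher) and *Krt23* (lower), and the 4 without replicate 2 were *Krt79* (higher) and *Krt23*, *Krt78* and *Krt80* (lower). The keratin median ranged from −0.45 to 0.97 and the log2 ratio of squamous to simple keratins from −0.79 to 0.99. As deposited, that ratio was 1.99.

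Log2 fold changes of these genes changed sign as deposited, where the names are wrong: *Krt10* −8.81, *Krt12* 9.11, *Krt13* −1.51, *Krt14* −0.66, *Krt15* −0.55, *Krt19* −17.21, *Krt20* −11.38, *Krt4* −17.31, *Krt5* −2.16, *Krt7* −16.43, *Krt75* −0.030, *Krt76* −2.25, *Krt78* 1.24, *Krt8* −8.34, *Pkp2* −3.11, *Iffo2* −5.15, *Nefm* 1.60, *Lmna* −16.54, *Lor* −16.35, *Sprr3* −3.04, *Tff2* −5.51, *Muc6* −20.39, *Lgals4* −17.04 and *Cdh1* −6.68. With library size it was *Krt78* 0.019, *Plec* 0.17 and *Alpi* 0.14. Leaving out a sample changed the sign of these, given as ranges: *Krt1* −0.34 to 1.07, *Krt10* −0.044 to 1.24, *Krt13* −1.65 to 0.97, *Krt15* −2.28 to 1.06, *Krt17* −0.70 to 0.61, *Krt19* −0.017 to 0.25, *Krt4* −2.19 to 0.91, *Krt6a* −0.52 to 1.83, *Krt6b* −0.38 to 2.19, *Krt75* −4.78 to 1.59, *Krt76* −1.15 to 1.65, *Krt78* −1.52 to 0.48, *Krt8* −0.032 to 0.12, *Krt80* −1.58 to 0.16, *Krt84* −3.76 to 0.67, *Plec* −0.12 to 0.026, *Des* −1.12 to 0.039, *Lor* −1.24 to 0.79, *Sprr3* −1.24 to 0.76, *Tff2* −0.26 to 1.04, *Muc6* −0.45 to 0.55, *Alpi* −2.78 to 1.12, *Flg* −1.64 to 0.26 and *Hrnr* −1.56 to 0.42.

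Both genotypes have replicates numbered 1 and 2 in the labels. Deviations of same-numbered samples correlated at 0.067 over 17643 genes and at −0.025 over the 26 keratins. The numbers were read as names of samples. A correlation from 1 difference in each genotype cannot show whether they also pair samples. With the replicate block 114 genes were called over the whole table and 1 keratin, *Krt79* (adjusted p = 0.0490 in edgeR). *Pkp2*, *Iffo2*, *Nefm*, *Klf5*, *Muc5ac*, *Gkn2* and *Gkn1* were not called with the block, at adjusted p-values of 0.0541 to 0.0805, while *Sox2*, *Atp4a*, *Atp4b*, *Chia1* and *Pgc* were. The block gave log2 fold changes of another sign for *Krt13* (−0.28), *Krt15* (−0.50), *Krt17* (−0.022), *Krt4* (−0.55), *Krt75* (−0.68), *Lor* (−0.19) and *Sprr3* (−0.19).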
